A study of Homo sapiens with 6 samples.

Results

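The genes described here are 10 human genes of the pro-apoptotic side of the BCL2 family, out of 23619 gene symbols measured: the effectors BAX and BAK1, and the BH3-only genes BCL2L11, BID, BBC3, BAD, BIK, HRK, BMF and PMAIP1. They were chosen by name. Total RNA was sequenced from 6 libraries of HG3, a lymphoblastoid B cell line derived from chronic lymphocytic leukaemia. There were 3 control pools of HG3 cells, numbered 17, 18 and 28, and 3 fludarabine-resistant pools with the same numbers, which the titles also call treated samples. The pools belong to a transposon mutagenesis study, in which a mobile element inserts at random and alters genes before drug selection; both groups are HG3, and no further allele, dose or time is given in the sources used here. Whether the drug was present at harvest, and whether pools were separate cultures from the start, are not given either, so p-values measure only the spread between these libraries. Fludarabine is a purine nucleoside analogue used against this leukaemia. The comparison asked whether resistant cells differ from their parental cells, and here whether they differ in the genes that start mitochondrial apoptosis.

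Mitochondrial apoptosis begins when BAX and BAK, which lie idle in healthy cells, form pores in the outer mitochondrial membrane and release cytochrome c. BH3-only proteins set this off. BIM (BCL2L11), BID and PUMA (BBC3) can bind BAX and BAK directly, whereas BAD, BIK, HRK, BMF and NOXA (PMAIP1) mainly occupy anti-apoptotic partners such as BCL2 and MCL1. In chronic lymphocytic leukaemia the balance between the sides is known for a high level of BCL2.

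Promoter sequence from RefSeq (GRCh38.p14, 250 bases before to 50 after each start) was matched for 9 of the 10 genes, all but BIK. It was searched on both strands for 3 short motifs. The E-box CACGTG, read the same on both strands and bound by factors such as MYC and USF, was in 7.26% of 35116 promoter windows. It was found for BAX, BBC3 and BID. A gene counted if any of its windows held the motif, so genes and the share of windows are not like for like. BID had 5 windows, and BAD and BMF had 2 each. The stretch before the BAX start held 4 E-boxes, a number reached in 0.0142% of windows. The forkhead motif GTAAACA was in 3.42% of windows and was found for BCL2L11. The cAMP response element TGACGTCA was in 1.85% of windows and in 0 of the 9 matched genes. The BAX, BBC3, BID and BCL2L11 stretches are shown because they hold the matches, whatever the expression of these genes. Capitals mark the motif. A match is a description of these letters and not evidence of binding.
BAX promoter, chr19:48954727-48954874, plus strand: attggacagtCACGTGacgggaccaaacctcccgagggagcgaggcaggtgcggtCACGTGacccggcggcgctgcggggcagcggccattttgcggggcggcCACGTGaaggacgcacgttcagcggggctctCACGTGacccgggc
BBC3 promoter, chr19:47232872-47232917, minus strand: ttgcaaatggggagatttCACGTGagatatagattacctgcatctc
BID promoter, chr22:17774062-17774111, minus strand: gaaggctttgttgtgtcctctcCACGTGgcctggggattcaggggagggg
BCL2L11 promoter, chr2:111120669-111120719, plus strand: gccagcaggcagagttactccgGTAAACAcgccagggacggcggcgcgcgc

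The values are FPKM, that is, fragment numbers divided by transcript length and library total, so levels can be compared between genes. Relative depth, read from the steps of low values, ran from 1 in control 17 to 1.31 in resistant 28. B cell markers were present in all libraries: MS4A1, which encodes CD20, had 92.4 to 164 FPKM in controls and 98.6 to 196 in resistant libraries, and CD79A, a chain of the B cell receptor, had 322 to 377 and 212 to 394. All 5 T cell markers and all 4 stromal markers stayed under 1 FPKM in every library. Of 5 myeloid markers, CD14, LYZ and MPO stayed under 1, and the list summed to 2.38 to 3.36 FPKM in controls and 2.41 to 8.22 in resistant libraries, with the highest sum in resistant 18, where ITGAM had 6.05 FPKM, CSF1R 1.97, MPO 0.160 and LYZ 0.0457, and CD14 was listed at 0. In control 18 they had 1.75, 0.487, 0.0422 and 0.0968 FPKM, and CD14 was also at 0. The part of these transcripts in any result was not tested. In such bulk libraries, fewer cells with a transcript and less of it per cell cannot be told apart. The libraries did not vary equally. Resistant 18 stood apart from the others, and limma's array weights gave it 0.162 against 1.03 to 1.93 elsewhere. The differences of BAX, BBC3 and BAD are therefore also given without it. Other values that draw on it, such as the family sums, are given only with it.

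Expression of the family was uneven in control cells. PMAIP1 was highest, at 209 to 223 FPKM, followed by BAX at 114 to 139.9. BAD (65.9 to 80.9) and BBC3 (64.4 to 69.7) overlapped, as did BMF (36.9 to 46.2), BAK1 (40.6 to 41.9) and BID (39.2 to 41.3). BIK (5.41 to 7.96) and BCL2L11 (4.85 to 6.43) were far lower and overlapped each other. HRK, a BH3-only gene best known from neurons, was listed at 0 in all 3 controls and in resistant 17 and 18, and at 0.0770 FPKM in resistant 28; it was not tested. In the resistant libraries PMAIP1 was again highest in each library, and the ranges of BAX, BBC3 and BAD overlapped.

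No tested member passed for resistant against control. Of the 9 members with at least 1 FPKM in at least 3 libraries, 0 passed limma's adjusted threshold of 0.05, against 4 of 11307 genes tested (0.0354%). PMAIP1 alone had an unadjusted p under 0.05, 1 of 9 members against 13.1% of all genes. PMAIP1 was higher in all 3 pools (1 of 9 members, 18.9% of all genes), and BMF and BCL2L11 were lower in all 3 (2 of 9, 18.7% of all genes). In these 3 genes resistant and control values did not overlap: 1 of 9 lay above all controls (10.1% of all genes) and 2 of 9 below (11.1%). These counts are small and lie near the shares of all genes. The median difference of the 9 members was -0.15 on the log2(FPKM + 1) scale, and that of all genes 0.01.

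**Figure D1:**
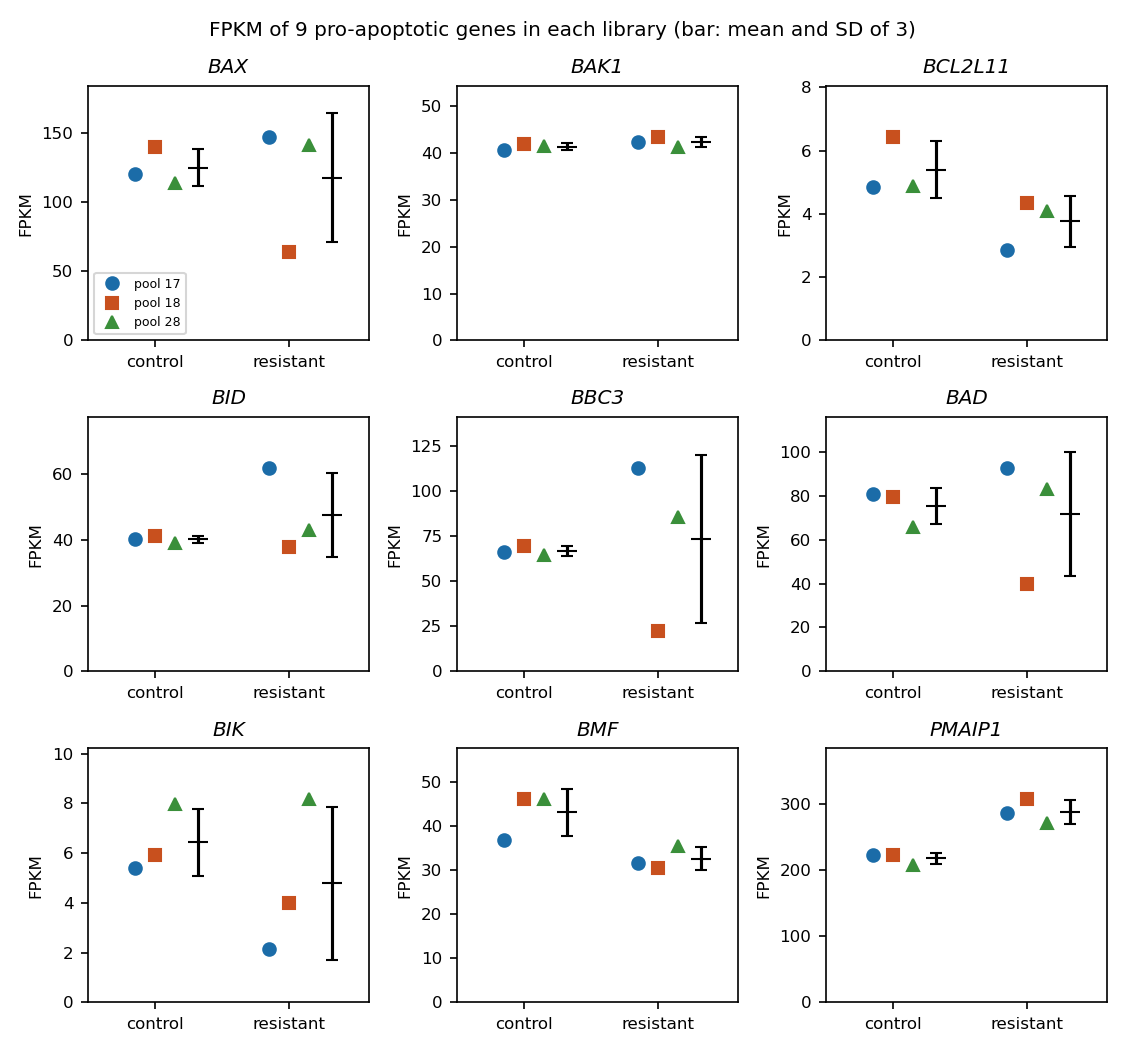
FPKM of the 9 tested genes in 3 control and 3 resistant libraries, 1 point per library with the pool by colour and shape, and the mean with its SD (n = 3) as a black bar. PMAIP1 lies above the controls and BMF and BCL2L11 below them in every resistant library, and BAX, BBC3 and BAD are low in resistant 18 alone.

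Among the effectors, BAK1 hardly varied and BAX did so in 1 library. BAK1, whose protein sits on the mitochondrial membrane held by partners such as MCL1, had 40.6, 41.9 and 41.6 FPKM in control pools 17, 18 and 28, against 42.4, 43.4 and 41.2 in their resistant counterparts. The groups overlapped, with a coefficient of variation of 1.66% in controls and 2.61% in resistant libraries. On the log2 scale the difference of 0.03 (SE 0.14, limma adjusted p = 0.946) turned negative under quantile normalization and with trends of GC content and length removed. BAK1 also has annotated pseudogene copies, BAK1P1 and BAK1P2, so that the way the authors assigned shared reads could affect its level.

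BAX, whose protein moves from the cytosol to mitochondria, had 120.2, 139.9 and 114 FPKM in control pools 17, 18 and 28, against 147, 63.6 and 141 in their resistant counterparts. Resistant 17 and 28 lay above every control, and resistant 18 lay far below them. The ratio of resistant to control was 1.22 in pool 17 and 1.24 in pool 28, whereas in pool 18 it was 0.455. Over the pools the log2 difference was -0.18 (SE 0.33, limma adjusted p = 0.857). Without resistant 18 it was 0.21 (adjusted p = 0.411), so its sign rested on that library.

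Among the direct activators, BCL2L11 was lower in every resistant library, BID was higher mainly in pool 17, and BBC3 went in opposite directions between pools. BCL2L11, which encodes BIM, had 4.85, 6.43 and 4.89 FPKM in control pools 17, 18 and 28, against 2.85, 4.35 and 4.09 in their resistant counterparts. All 3 resistant values lay below all 3 controls. It averaged 5.39 ± 0.902 FPKM over controls against 3.76 ± 0.804 over resistant libraries (SD, n = 3 each), a ratio of control to resistant of 1.43. Its log2 difference of -0.43 (SE 0.19) missed the threshold (limma adjusted p = 0.401), with -0.25 at a pseudocount of 5 (0.398) and -0.28 without resistant 17 (0.632). The promoter with the forkhead motif printed above belongs to this gene.

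BID, which caspase-8 cleaves to link death receptors to mitochondria, had 40.2, 41.3 and 39.2 FPKM in control pools 17, 18 and 28, against 61.9, 37.8 and 43.1 in their resistant counterparts. Controls were tight, with a coefficient of variation of 2.61%, and resistant 17 was 1.54-fold above its control. Resistant 28 was 1.10-fold above its control and resistant 18 was below all controls. Over the pools BID differed by 0.21 on the log2 scale (SE 0.21, limma adjusted p = 0.716). Without resistant 17 it was 0.0041.

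BBC3, which encodes PUMA, had 65.9, 69.7 and 64.4 FPKM in control pools 17, 18 and 28, against 113, 22.2 and 85.4 in their resistant counterparts. The controls differed little among themselves, with a coefficient of variation of 4.07%, against 63.3% among resistant libraries. Resistant 17 was 1.71-fold and resistant 28 1.33-fold above its control, and in pool 18 control was 3.14-fold above resistant. The log2 differences of 0.77, -1.61 and 0.40 in pools 17, 18 and 28 spanned 2.37, the widest span of the 9 members, where the median span of all genes was 0.65. In pool 17, 95.6% of genes had a lower difference than BBC3, and in pool 18 only 2.59% had. Over the pools it differed by -0.15 on the log2 scale (SE 0.55, limma adjusted p = 0.937). Without resistant 18 it differed by 0.55 (adjusted p = 0.134). With 1 pair per pool, the difference between pools was not tested. BBC3 overlaps the microRNA genes MIR3191, on the same strand, and MIR3190, on the opposite one. MIR3191 was listed at 0 in the 3 controls and in resistant 18, and had 54.7 FPKM in resistant 17 and 175 in resistant 28. MIR3190 had 38.7 FPKM in control 28 and was listed at 0 in the other libraries. FPKM of such short genes can rest on very few fragments, and reads of BBC3 and these genes may be shared.

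**Figure D2:**
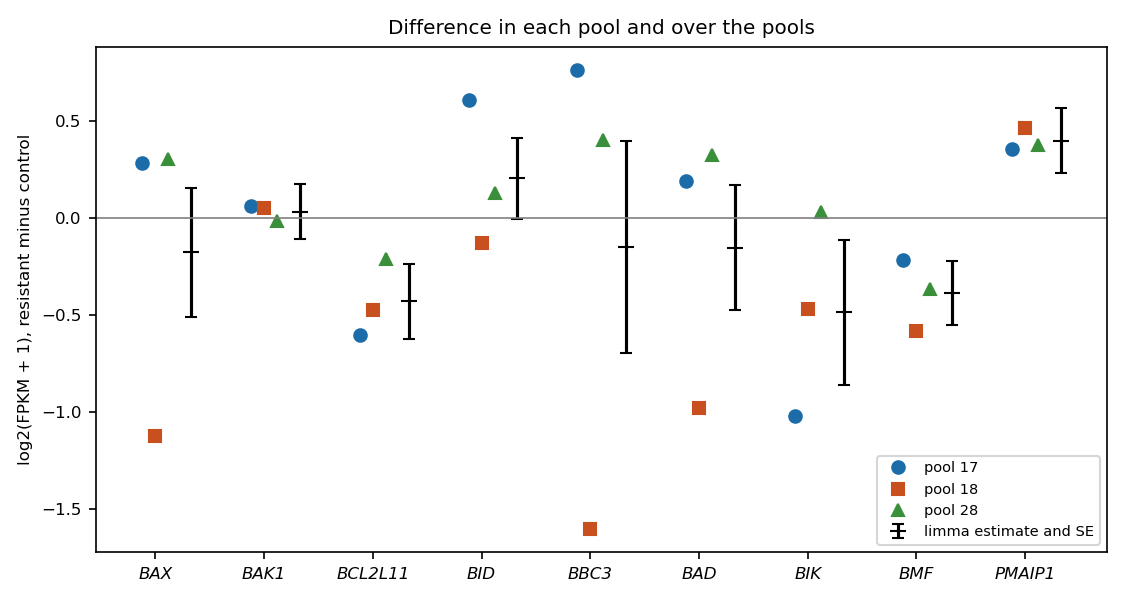
Difference between the resistant and the control library of each pool on the log2(FPKM + 1) scale for the 9 tested genes, with limma's estimate over the pools and its SE in black. PMAIP1 is the only one of the 9 genes above 0 in all pools, BMF and BCL2L11 are below 0 in all, and pool 18 lies far below the other pools for BAX, BBC3 and BAD.

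Among the sensitisers, PMAIP1 was higher and BMF lower in each pool. PMAIP1, which encodes NOXA, a partner mainly of MCL1 and BCL2A1, had 223, 223 and 209 FPKM in control pools 17, 18 and 28, against 286, 308 and 272 in their resistant counterparts. Every resistant value lay above every control. It averaged 218 ± 8.35 FPKM over controls against 289 ± 18.2 over resistant libraries (SD, n = 3 each), a ratio of 1.32. The log2 difference was 0.36, 0.47 and 0.38 in pools 17, 18 and 28 and 0.40 over them (SE 0.17), with an unadjusted p of 0.0477 that did not survive adjustment (limma adjusted p = 0.378). Once trends of GC content and length were taken out it was 0.25 (adjusted p = 0.466).

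BMF, a BH3-only protein tethered to the cytoskeleton by a dynein light chain, had 36.9, 46.2 and 46.2 FPKM in control pools 17, 18 and 28, against 31.7, 30.5 and 35.6 in their resistant counterparts. All resistant values lay below all controls, with control 17 close to resistant 28. It averaged 43.1 ± 5.33 FPKM over controls against 32.6 ± 2.64 over resistant libraries (SD, n = 3 each), a ratio of control to resistant of 1.32. Its log2 difference of -0.39 did not pass (SE 0.17, unadjusted p = 0.0522, limma adjusted p = 0.384).

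BAD, which growth factor signalling silences by phosphorylation, had 80.9, 79.3 and 65.9 FPKM in control pools 17, 18 and 28, against 92.6, 39.7 and 83.0 in their resistant counterparts. As for BAX, resistant 17 and 28 lay above all controls and resistant 18 below them. The ratio of resistant to control was 0.501 in pool 18. Over the pools BAD differed by -0.15 on the log2 scale (SE 0.32, limma adjusted p = 0.877). Without resistant 18 it differed by 0.22 (adjusted p = 0.403). GPR137, on the opposite strand and overlapping BAD, varied alongside: it had 9.07 to 10.8 FPKM in the controls, against 11.3, 4.18 and 9.81 in resistant 17, 18 and 28. Whether the libraries kept strand is not given in the sources used here, so reads from the stretch this pair shares may not be told apart.

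BIK, a BH3-only protein of the endoplasmic reticulum, had 5.41, 5.92 and 7.96 FPKM in control pools 17, 18 and 28, against 2.16, 3.997 and 8.18 in their resistant counterparts. It was 2.50-fold lower in resistant than in control cells of pool 17, and almost equal in pool 28. Over the pools it differed by -0.48 on the log2 scale (SE 0.37, limma adjusted p = 0.613), and by -0.12 without resistant 17 and -0.89 without resistant 28.

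Differences of the members pointed in different directions across the 3 pools. In pool 17, 6 of the 9 were higher in the resistant library (47.2% of all genes were), in pool 28 also 6 of 9 (49.3% of all genes), and in pool 18 2 of 9 (53.4% of all genes). A log2 difference past 1 in either direction was seen for BIK in pool 17 (1 of 9, 4.17% of all genes), for BAX and BBC3 in pool 18 (2 of 9, 12.7%), and for 0 of 9 in pool 28 (8.08%). The members' median was 0.19, -0.47 and 0.13 in pools 17, 18 and 28, where the median of all genes was -0.03, 0.05 and -0.01. Each pool holds 1 library per group, so these are descriptions.

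In pool 18 the differences also moved with GC content across the transcriptome. The median difference there was 0.25 over the 2480 genes with the lowest GC content and -0.18 over the 2480 with the highest. In pool 28 it ran the other way, from -0.12 to 0.15. The members span this range, with transcripts of 37.2% GC for PMAIP1, 58.9% for BAX, 66.3% for BAD and 69.7% for BBC3. With trends of GC content and length removed, the pool 18 difference was -0.91 for BAX, -1.03 for BBC3, -0.45 for BAD and 0.15 for PMAIP1, in place of -1.13, -1.61, -0.98 and 0.47. That of BMF was -0.58 both ways, and that of BCL2L11 was -0.58 in place of -0.47. In pool 28 the trend-free difference of BBC3 was 0.03 in place of 0.40, and that of BAX 0.06 in place of 0.31. BCL2L11 there had -0.05 in place of -0.21, and BMF -0.30 in place of -0.37. In pool 17 BBC3 had 0.36 in place of 0.77, BMF -0.10 in place of -0.21, BCL2L11 -0.51 in place of -0.60 and BID 0.62 in place of 0.61. BAD changed sign in pool 17, from 0.19 to -0.08, and had 0.0055 in place of 0.33 in pool 28. BIK changed sign in pool 28, from 0.03 to -0.11.

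**Figure D3:**
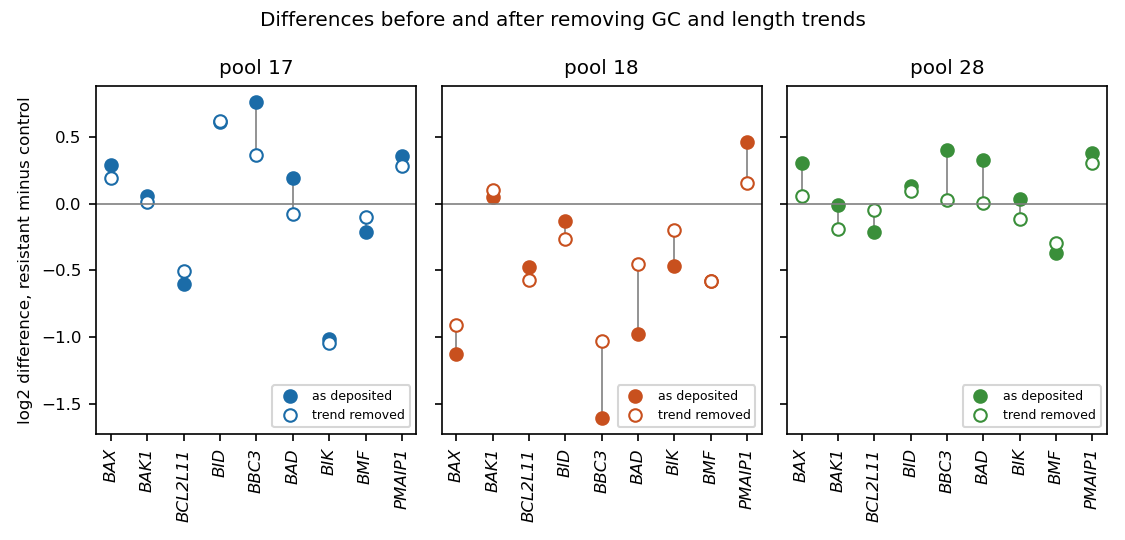
Log2 difference between resistant and control library in each pool for the 9 tested genes, as deposited (filled) and with trends of GC content and length removed (open). In pool 18 BBC3 moves from -1.61 to -1.03 and PMAIP1 from 0.47 to 0.15, and BMF stays at -0.58.

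By the root mean square difference between centred log2 profiles over the 6 libraries, BAX and BAD were the most alike of the member pairs (0.08). The 2 members with the largest standard deviation over libraries were BBC3 (0.78) and BIK (0.58). The genes closest to BBC3 among all tested were the linker histone gene HIST1H1E (0.06), ARID5A (0.10) and NRSN1 (0.10), each low in resistant 18 and high in resistant 17. Those closest to BIK were PLBD2 (0.17), COX5A, a subunit of cytochrome c oxidase (0.17), and PLAU, the urokinase gene (0.20). Likeness over 6 libraries is a description and says nothing of shared function or control.

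As a sum, the 10 pro-apoptotic genes held 618, 653 and 593 FPKM in control pools 17, 18 and 28, against 779, 553 and 714 in their resistant counterparts. PMAIP1 made up 34.1% to 36.1% of that sum in controls, 36.7% in resistant 17, 38.1% in resistant 28 and 55.6% in resistant 18. BAX made up 19.2% to 21.4% in controls and 11.5% in resistant 18, and BBC3 made up 10.7% to 10.9% in controls and 4.01% in resistant 18. The 6 anti-apoptotic partners BCL2, BCL2L1, BCL2L2, MCL1, BCL2A1 and BCL2L10 summed to 277, 266 and 252 FPKM in controls and to 364, 397 and 381 in resistant libraries. The ratio of the pro-apoptotic to the anti-apoptotic sum was 2.23, 2.45 and 2.36 in control pools 17, 18 and 28, against 2.14, 1.39 and 1.87 in their resistant counterparts. It was lower in each resistant library than in any control, and resistant 17 lay closest to the controls. This order rested on BCL2A1, the most abundant of the 6 partners in every library. BCL2A1 had 113 to 129 FPKM in controls and 190 to 259 in resistant libraries. BCL2 was lower in each resistant library than in its control, so the order is not a shift of the whole family. These sums weigh abundant transcripts most, describe RNA and not protein, and were given no test.

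**Figure D4:**
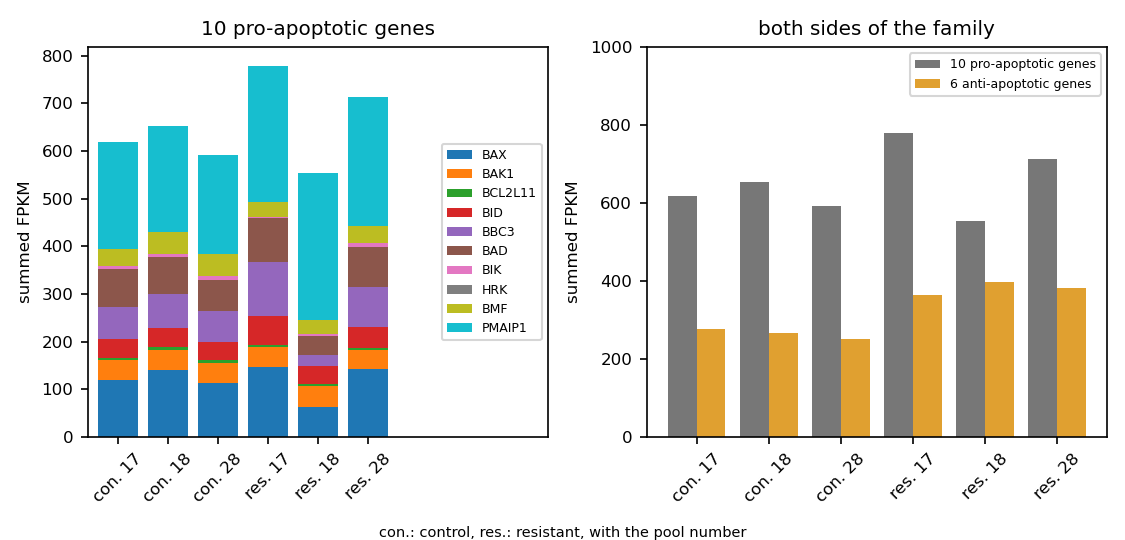
Summed FPKM per library, on the left the 10 pro-apoptotic genes stacked by gene and on the right their sum beside that of the 6 anti-apoptotic genes. The anti-apoptotic sum is higher in all 3 resistant libraries (364 to 397) than in controls (252 to 277), and the pro-apoptotic sum is lowest in resistant 18 (553). BCL2A1 makes up most of the rise in the anti-apoptotic sum.

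The genes around these members gave 0 calls over all genes in limma. They are named by rank of p within their list, and the members of small counts were named after their values were seen. Of the 6 anti-apoptotic partners, 3 were higher in all 3 pools (BCL2A1, MCL1 and BCL2L2; 18.9% of all genes) and 1 was lower (BCL2; 18.7%), 2 had an unadjusted p under 0.05 (13.1% of all genes), and the median difference was 0.39, against 0.01 over all genes. BCL2A1, which binds NOXA, PUMA, BIM and BID, averaged 121 ± 8.34 FPKM over controls against 219 ± 35.6 over resistant libraries (SD, n = 3 each; log2 difference 0.84, limma adjusted p = 0.184). MCL1 differed by 0.59 (adjusted p = 0.226).

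Other BCL2 family and BH3-like genes had 6 tested, with a median of 0.16. Of these, 2 were higher in all 3 pools (BCL2L12 and BCL2L13), against 18.9% of all genes, and 1 was lower (BNIP3L), against 18.7%. In this list 1 gene had an unadjusted p under 0.05 in limma (13.1% of all genes). BCL2L12 averaged 4.86 ± 1.27 FPKM over controls against 8.42 ± 1.82 over resistant libraries (log2 difference 0.69, limma adjusted p = 0.286). BECN1, the autophagy protein with a BH3 domain, had 77.1 FPKM in resistant 18 against 30.4 in control 18, and hardly differed in pool 17 (-0.05). In pool 28 BECN1 had 43.2 FPKM in the resistant library against 28.3 in the control (log2 difference 0.59).

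Downstream, the 14 genes of the apoptosome and the caspases had 0 with an unadjusted p under 0.05 in limma (13.1% of all genes). Their median was 0.07. CASP2 differed by -0.54 (limma adjusted p = 0.430). Of the 10 genes of death receptor signalling that feeds BID, 3 (TRADD, CFLAR and CASP8) were higher in all pools, against 18.9% of all genes. TNFRSF10B alone was lower in all pools, 1 of 10 against 18.7% of all genes. In limma 2 of 10 had an unadjusted p under 0.05, against 13.1% of all genes, and the median was 0.12. The adaptor gene TRADD averaged 18.9 ± 1.91 FPKM over controls against 35.3 ± 11.9 over resistant libraries (0.81, adjusted p = 0.297). CFLAR, which encodes the caspase-8 inhibitor FLIP, had 42.8, 41.3 and 47.3 FPKM in control pools 17, 18 and 28, against 55.9, 115 and 60.2 in their resistant counterparts (0.72, adjusted p = 0.352).

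Upstream, 11 transcription factors known to act on BH3-only genes were tested, with a median of -0.10. In limma 1 had an unadjusted p under 0.05 (13.1% of all genes). RUNX3, which can activate BCL2L11, averaged 50.04 ± 6.43 FPKM over controls against 34.2 ± 9.31 over resistant libraries (log2 difference -0.57, limma adjusted p = 0.380), and the forkhead gene FOXO4 differed by 0.29 (0.461). The 16 genes whose products bind or turn over these proteins had 4 higher in all pools (DYNLL2, YWHAB, YWHAE and AKT1), against 18.9% of all genes. Another 6 of the 16 were lower in all pools, against 18.7% of all genes. In limma 6 of 16 had an unadjusted p under 0.05 (13.1% of all genes), and the median was -0.05. HUWE1, a ubiquitin ligase that carries a BH3 domain and degrades MCL1, averaged 40.8 ± 9.29 FPKM over controls against 18.2 ± 1.39 over resistant libraries (-1.10, SE 0.20, adjusted p = 0.158). DYNLL2, the dynein light chain that tethers BMF, averaged 18.8 ± 0.784 FPKM over controls against 37.7 ± 9.64 over resistant libraries (0.94, SE 0.20, adjusted p = 0.179). DYNLL1, the light chain that tethers BIM, averaged 120.1 ± 14.9 FPKM over controls against 77.3 ± 18.8 over resistant libraries (-0.65, SE 0.23, adjusted p = 0.300), and was chosen after its values were seen. None of these 3 genes passed over all genes.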

How the data were processed

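The authors deposited 1 FPKM table per library, per the file headers, with decimal commas. The submitters' processing notes name hg19, DESeq2, HTSeq 0.6.1, TopHat2 2.0.4 and Cufflinks 2.2.1. The step each served is not stated there, nor is the annotation. FPKM are not counts, so no count model was fitted and no counting interval was computed. The 11307 genes that reached 1 FPKM in 3 or more of the 6 libraries were tested on log2(FPKM + 1), which understates differences of low genes, with limma 3.58.1 in R 4.3.3 (eBayes with trend, two-sided, Benjamini-Hochberg over all genes tested, threshold 0.05). The fit was tested on simulated data with the same spread for every gene and library. Such data cannot show how the fit does where libraries vary unequally, as they did here.

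Alternatives were other pseudocounts, filters, scalings, weights, the pool as a block, leaving out each library or pool, and, chosen after seeing the data, removing a loess trend (span 0.5) over GC content and length from GENCODE v29, matched for 87.7% of genes tested. The series describes pairs of pools, so equal numbers were taken as pairs; their deviations correlated at 0.15, 0.09 and -0.02 in pools 17, 18 and 28, and those of unequal numbers at -0.21 to 0.17, so the data themselves do not single out these pairs. The members and lists were chosen with earlier results of these data known. Named genes were all members, the 2 of smallest p in each list without a call, and the 3 closest in profile to each of the 2 most variable members. Some listed genes are not reported here.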

Additional observations from a re-analysis of the deposited data

How the results depend on the processing

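None of the 9 tested members passed limma's adjusted threshold under any of the 19 alternatives, and the lowest adjusted p of a member was 0.0949, for BCL2L11 with array weights. PMAIP1 stayed higher (0.25 to 0.44), and BMF (-0.49 to -0.29) and BCL2L11 (-0.58 to -0.25) lower, in all 19. The paired fit, with the pool as a replicate block, passed 3 of all genes, against 4 without it, and changed no member's call. The count over all genes was 2 with at least 1 FPKM required in all 6 libraries, 301 with array weights, 18 without pool 18, 3 to 13 with 1 library left out, 2 with GC and length trends removed, and 0 with the trends removed and the block (limma, 1513 with an unadjusted p under 0.05).

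Differences that changed sign, none of them called, were those of BAX, BBC3, BAD and BAK1. With array weights they were 0.13 for BAX, 0.47 for BBC3 and 0.17 for BAD, and without pool 18 they were 0.30, 0.58 and 0.26. With 1 library left out, BAX ran from -0.38 to 0.21, BBC3 from -0.60 to 0.55 and BAD from -0.38 to 0.22, positive only without resistant 18. BAK1 had -0.076 under quantile normalization and -0.023 with the trends removed, with or without the block. BID ran from 0.0028 without pool 17 to 0.37 without pool 18. The cause was not tested. The files give no counts, so the precision of HRK, BIK and BCL2L11 at low FPKM is unknown.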
